A study of Homo sapiens with 4 samples.

Results

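The AP-1 and immediate early genes described here are FOS, FOSB, JUN, JUNB, JUND, EGR1, ATF3, IER2, DUSP1 and ZFP36. They were picked by name, but with earlier results of these data known, so the set is not independent of the values given here. All 10 were listed in each of the 4 count tables, among 23364 genes listed in at least 1 table. The tables come from the human embryonic stem cell line KhES1 and from its blastoids, which are aggregates grown to resemble the blastocyst. The hESC group holds 2 samples (hESC 1 and hESC 2) of cells kept on Matrigel in mTeSR-1 medium. The blastoid group holds 2 samples (blastoid 3 and blastoid 4), for which cells were released with TrypLE for 3 min, aggregated for 24 h with the ROCK inhibitor Y27632 at 10 µM, embedded in a hydrogel, fed for 3 days with serum-containing medium (10% FBS) and then kept in iBlastoid medium. The labels give these TrypLE, Y27632, aggregation, serum and hydrogel values alike for all 4 samples. They were read here as steps of the blastoid protocol, since the descriptions of the hESC samples name mTeSR-1 medium only. Both groups share the cell line, and no genotype or genetic change is given. The table names of the blastoid samples carry day 9 and those of the hESC samples day 0, while the titles of all 4 samples carry day 0, so each sample's group was read from its description. How the blastoids were taken apart into single cells is not given in the sources used here. With the serum step read as part of the blastoid protocol, culture, serum and dissociation cannot be told apart in any difference between the groups. Nothing in the labels says that the samples of a group came from separate cultures, so p-values measure the spread between these samples only.

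Immediate early genes are transcribed within minutes of a stimulus from regulators that are already present in the cell, and most of their messenger RNAs are short-lived. AP-1 is a dimeric transcription factor formed by a FOS-family protein with a JUN-family protein, or by JUN proteins with each other or with ATF proteins. Growth factors, serum, stress signals and the mechanical and enzymatic handling of cells all reach these genes, largely through MAP kinases that act on SRF, its ternary complex partners and CREB-family factors. FOS, FOSB, JUN, JUNB and JUND are AP-1 subunits, and ATF3 is a stress-responsive factor that can pair with JUN proteins. EGR1 is a zinc finger transcription factor and IER2 a nuclear immediate early protein. DUSP1 is a phosphatase that switches MAP kinases off, and ZFP36 (tristetraprolin) binds AU-rich messenger RNAs and speeds their decay, so both limit the response that induces them.

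Most members are compact genes. In GENCODE annotation of GRCh38, 9 of 10 span fewer than 10000 bases, against 25.9% of 19969 protein-coding genes, and the median span was 3498.5 bases against 27111. The exception is ATF3, at chr1:212565334-212620777 on the plus strand. FOSB, JUNB, JUND, IER2 and ZFP36 lie on chromosome 19. FOS lies at chr14:75278774-75282230 on the plus strand, FOSB at chr19:45467995-45475179 on the plus strand, JUN at chr1:58780788-58784327 on the minus strand and JUNB at chr19:12791496-12793315 on the plus strand. JUND lies at chr19:18279760-18281622 on the minus strand, EGR1 at chr5:138465490-138469315 on the plus strand, IER2 at chr19:13150415-13154908 on the plus strand, DUSP1 at chr5:172768090-172771195 on the minus strand and ZFP36 at chr19:39406813-39409412 on the plus strand. On the opposite strand FOSB overlaps ERCC1, JUNB overlaps HOOK2, IER2 overlaps AC011446.2 and DUSP1 overlaps AC022217.3. Of these neighbours all but AC022217.3 were listed in the counts. The strand setting of the counting is not given in the sources used here, so reads of these pairs may not have been told apart.

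The 200 bases before the RefSeq transcription start of 6 members are shown because these members rose together in the blastoid samples and were picked for matches to the motifs through which CREB-family, JUN and ATF proteins and SRF are known to act. Sequences run 5′ to 3′ on the gene's strand (RefSeq, GRCh38.p14), with motif matches in capitals. The motifs searched, on both strands, were TGACGT (the short cyclic AMP response element), TGACGTCA (its full form, which contains the short one), TGACATCA (the JUN and ATF variant), TGACTCA (the AP-1 site), the CArG box bound by SRF and, on the gene's strand only, TATAAA.
FOS, chr14:75278628-75278827, plus strand: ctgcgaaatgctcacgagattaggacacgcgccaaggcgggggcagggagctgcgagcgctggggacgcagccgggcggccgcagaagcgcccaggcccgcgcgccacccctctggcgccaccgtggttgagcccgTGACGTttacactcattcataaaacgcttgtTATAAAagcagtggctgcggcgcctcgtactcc
FOSB, chr19:45467796-45467995, plus strand: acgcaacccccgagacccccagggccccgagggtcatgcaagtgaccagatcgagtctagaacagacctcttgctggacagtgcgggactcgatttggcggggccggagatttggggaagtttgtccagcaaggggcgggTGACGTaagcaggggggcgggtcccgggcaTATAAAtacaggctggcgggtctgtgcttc
JUN, chr1:58784048-58784247, minus strand: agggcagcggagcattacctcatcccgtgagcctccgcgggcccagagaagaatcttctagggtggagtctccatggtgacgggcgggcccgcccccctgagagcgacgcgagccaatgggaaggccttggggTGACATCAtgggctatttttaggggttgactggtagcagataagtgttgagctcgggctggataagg
JUND, chr19:18281623-18281822, minus strand: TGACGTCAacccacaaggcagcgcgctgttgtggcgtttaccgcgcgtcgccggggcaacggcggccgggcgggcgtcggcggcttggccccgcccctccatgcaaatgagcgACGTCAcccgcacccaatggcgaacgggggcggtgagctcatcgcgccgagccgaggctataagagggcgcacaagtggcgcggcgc
EGR1, chr5:138465279-138465478, plus strand: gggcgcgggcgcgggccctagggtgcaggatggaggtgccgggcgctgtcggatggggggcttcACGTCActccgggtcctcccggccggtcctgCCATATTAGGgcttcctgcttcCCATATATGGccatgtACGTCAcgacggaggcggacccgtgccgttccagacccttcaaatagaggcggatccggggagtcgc
DUSP1, chr5:172771196-172771395, minus strand: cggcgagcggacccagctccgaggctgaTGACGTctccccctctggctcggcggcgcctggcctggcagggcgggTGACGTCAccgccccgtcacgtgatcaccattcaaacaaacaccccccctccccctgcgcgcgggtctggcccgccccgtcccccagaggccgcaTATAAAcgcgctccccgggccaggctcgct
In these windows FOS and FOSB each carry TGACGT about as far from the start (-64 to -59 and -60 to -55, counted in bases with the start at 0), followed by TATAAA. JUN carries TGACATCA at -67 to -60. JUND and DUSP1 carry the full TGACGTCA. EGR1 carries CArG boxes at -105 to -96 and at -83 to -74, between matches to TGACGT on the other strand.

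Motif shares were counted in the whole RefSeq windows, which run from 250 bases before to 50 bases after the start. The 10 members have 11 windows, since ATF3 has 2 starts, and 35116 windows were searched in all. TGACGT was found in windows of 5 members (FOS, FOSB, JUND, EGR1 and DUSP1) and in 7.98% of all windows. TGACGTCA was in 2 members and 1.85% of all windows, and TGACATCA was in 2 members (JUN and ATF3) and 2.61% of all windows. The CArG box was in 1 member, EGR1, and in 1.29% of all windows. TATAAA was in 5 members (FOS, FOSB, JUNB, ATF3 and DUSP1) and in 7.33% of all windows. TGACTCA, the site that AP-1 itself binds, was in 0 of the 11 member windows and in 4.95% of all windows. These are matches of letters, and binding was not measured.

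The 4 tables held 5941, 7575, 3487 and 2071 barcodes (hESC 1, hESC 2, blastoid 3 and blastoid 4), of which 2238, 3175, 2278 and 1916 cells were kept (at least 500 genes, at most 20% mitochondrial UMIs, no doublet call), with medians of 5769, 4996, 6207 and 8798 UMIs. A UMI is a random barcode added to each captured RNA molecule before copying, so that copies are not counted again. Clusters made without any gene of the lists used here gave pluripotent-like cells (2073 and 2911 in the hESC samples, 103 and 112 in the blastoid samples), trophectoderm/amnion-like cells (415 and 631, blastoid samples) and mesoderm/mesenchyme-like cells (1759 and 1172, blastoid samples), all named from markers. All 14 pluripotency markers were counted in every sample, with a summed 6831 and 7067 CPM in the hESC samples and 1179 and 1100 CPM in the blastoid samples, and median mitochondrial shares were 11.1%, 10.9%, 8.62% and 9.74% in the order above. No endothelial-like, hypoblast-like, neural or blood cluster was found, and 431 cells, 165 and 264 of them in the hESC samples, stayed unnamed. These unnamed cells (cluster 7) were shallow, with medians of 1130 UMIs and 0.31% mitochondrial UMIs. In them 12 of 14 pluripotency markers were found in at least 10% of cells. The 5 blood markers summed to at most 1.24 CPM in any sample, and the 11 endothelial markers to 108, 103, 174 and 134 CPM. There were 1317 barcodes in common between the hESC samples and 1035 between the blastoid samples, against 6 to 14 across groups, and 1310 kept cells of hESC 2 and 1010 of blastoid 4 carried a shared barcode. In the other sample of each group most of these barcodes fell to the filters, so that 23 were kept in both hESC samples and 0 in both blastoid samples. Whether shared barcodes are the same cells or reads carried between libraries was not tested, and if so the samples of a group are not independent and the SEs and p-values given here are too small. With shared barcodes left out, the members called in the comparisons that follow were 10 of 10 over all cells, 7 of 10 (not 8) in pluripotent-like cells and 9 of 10 (not 10) between classes. Of all genes, 3815 of 15216 were then called higher over all cells, 1122 of 11768 higher in pluripotent-like cells and 2832 of 12489 lower between classes. This setting left 19 of the 112 pluripotent-like cells of blastoid 4 (99664 of 1374828 UMIs). Over all cells it left 5033196 of the 15913590 UMIs of hESC 2.

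Every one of the 10 members was higher in the blastoid samples than in the hESC samples when UMIs were summed over all kept cells. Levels are UMI counts per 1000000 UMIs (CPM) on library sizes scaled by TMM, and differences are log2 values ± SE from the edgeR quasi-likelihood test with Benjamini-Hochberg adjustment over 16332 genes, called at an adjusted p under 0.05. Of all genes tested 27.1% were called higher and 22.8% lower, so either call is common here. The members' median log2 difference was 2.53, against 0.05 over all genes tested. In none of the 10 did the samples of the groups overlap, and 41.5% of all genes tested were higher without overlap.

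FOSB, JUN and FOS had the largest differences of the 10 members. FOS was at 13.2 CPM in hESC 1, 14.4 in hESC 2, 393.6 in blastoid 3 and 527.9 in blastoid 4. Its level was 33.3-fold higher in the blastoid samples (log2 5.06 ± 0.20, edgeR adjusted p = 7.69e-06). FOSB was almost undetected in the stem cells, at 0.56 and 0.32 CPM from 7 and 5 UMIs, and stood at 64.5 and 74.1 CPM in blastoid 3 and blastoid 4. The fitted FOSB difference was log2 7.30 ± 0.25 (edgeR adjusted p = 4.98e-06), and with so few UMIs in the hESC samples its size is loosely set. ERCC1, the DNA repair gene that overlaps FOSB on the opposite strand, was higher by log2 0.65 ± 0.13 only.

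**Figure D1:**
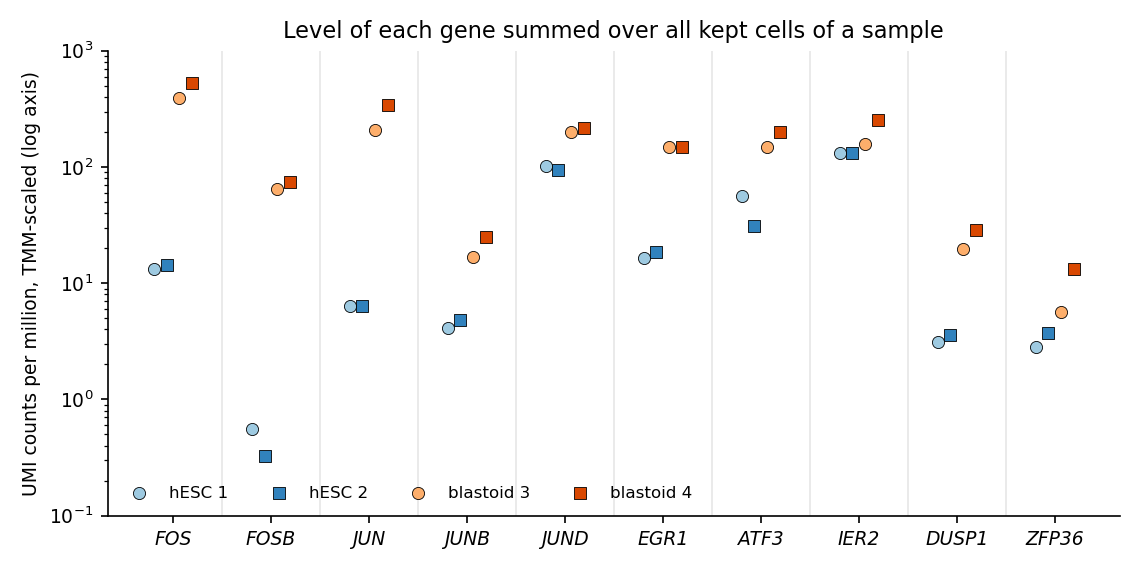
Level of each of the 10 genes in each sample, as TMM-scaled CPM on a log axis, with UMIs summed over all kept cells (1 point per sample). Both blastoid points lie above both hESC points for every gene, by the widest margin for FOSB, JUN and FOS and the narrowest for IER2 and ZFP36.

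Among the JUN subunits, JUN was at 6.41 and 6.36 CPM in the hESC samples and at 206.6 and 341.8 CPM in the blastoid samples. Its log2 difference was 5.42 ± 0.28 (edgeR adjusted p = 1.62e-05). JUNB rose from 4.09 and 4.80 CPM to 16.7 and 24.7 CPM, a log2 difference of 2.22 ± 0.24 (edgeR adjusted p = 0.000382). HOOK2, which overlaps JUNB on the opposite strand, went the other way, with a log2 difference of -1.08 ± 0.16. JUND, the subunit that most cells make without a stimulus, was already at 102 and 94.4 CPM in the hESC samples and reached 198 and 215 CPM in the blastoid samples. It rose by log2 1.08 ± 0.13 (edgeR adjusted p = 0.000518), the smallest change among the FOS and JUN genes.

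EGR1 was at 16.4 and 18.5 CPM in the hESC samples and at 149.4 and 149.5 CPM in the blastoid samples, with little spread within either group. It was 8.55-fold higher (log2 3.095 ± 0.138, edgeR adjusted p = 1.06e-05). ATF3 was at 55.8 CPM in hESC 1, 31.0 in hESC 2, 149 in blastoid 3 and 200.2 in blastoid 4. The hESC samples thus differed from each other more for ATF3 than for any of the other members above 10 CPM, and the log2 difference between groups was 2.01 ± 0.28 (edgeR adjusted p = 0.00109). IER2 was abundant before differentiation, at 131.1 and 132.3 CPM, and stood at 156 CPM in blastoid 3 and 253 CPM in blastoid 4. The IER2 difference was log2 0.64 ± 0.22 (edgeR adjusted p = 0.0439). It rested on blastoid 4: without that sample it was log2 0.22 (adjusted p = 0.114), and it also missed the threshold without either hESC sample (adjusted p = 0.167 and 0.153) and with DESeq2 size factors (adjusted p = 0.0518).

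The genes that limit the response rose as well. DUSP1 was at 3.12 and 3.57 CPM in the hESC samples and at 19.6 and 28.6 CPM in the blastoid samples (log2 2.84 ± 0.24, edgeR adjusted p = 0.000126). ZFP36 was at 2.80 and 3.76 CPM in the hESC samples, 5.68 CPM in blastoid 3 and 13.2 CPM in blastoid 4. Its log2 difference of 1.51 ± 0.41 (edgeR adjusted p = 0.0189) was 0.74 without blastoid 4, and it missed the threshold without hESC 1 (adjusted p = 0.0677) and among cells with at most 10% mitochondrial UMIs (adjusted p = 0.069).

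Genes around the members were taken from 6 further lists. Of 35 other immediate early genes, all tested, 26 were called higher and 3 lower, with a median log2 difference of 1.39. Among the most abundant of them, KLF6, a zinc finger factor, rose from 19.95 and 16.5 CPM to 117.7 and 193.6 CPM (log2 3.095 ± 0.256). ZFP36L1, a relative of ZFP36, rose by log2 0.87 ± 0.14, while ZFP36L2 was at 92.5 and 102 CPM in the hESC samples and at 55.2 and 80.7 CPM in the blastoid samples (edgeR adjusted p = 0.0546). Of 11 other AP-1 family subunits 9 were tested, 4 were called higher and 2 lower, with a median of 0.29. FOSL2 rose from 0.72 and 0.84 CPM to 20.8 and 21.4 CPM (log2 4.73 ± 0.22), ATF2 rose by log2 0.64 ± 0.14 and MAFG fell by 0.41 ± 0.14 on the log2 scale.

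Of 9 other dual-specificity phosphatases 3 were called higher and 2 lower (median 0.11). DUSP6, an ERK phosphatase that is itself induced by ERK signalling, fell from 110.2 and 162 CPM to 51.9 and 30.5 CPM (log2 -1.73 ± 0.28), opposite to DUSP1. Of 20 MAP kinases and upstream transcription factors 7 were called higher and 4 lower (median 0.16), among them MEF2A, which rose by log2 1.06 ± 0.15, and MAP2K1, which fell by 0.67 ± 0.13 on the log2 scale. Of 16 textbook AP-1 target genes 15 were tested, 5 were called higher and 2 lower, with a median of 0.24. LMNA rose by log2 1.08 ± 0.23 and TIMP1 by 0.76 ± 0.14, while CCND1 was at 80.4 and 98.5 CPM in the hESC samples and at 91.7 and 90.2 CPM in the blastoid samples. Of 13 heat shock and chaperone genes 6 were called higher and 3 lower (median 0.16). The mitochondrial chaperones HSPD1 and HSPE1 fell by 1.35 ± 0.14 and 1.57 ± 0.14 on the log2 scale. The summed level of this list was 9392 and 10441 CPM in the hESC samples against 6640 and 7175 CPM in the blastoid samples. This sum is weighted to its most abundant genes, HSP90AB1, HSP90AA1, HSPD1 and HSPE1 (mean 2710, 2017, 1247 and 809 CPM over all samples), and does not follow the direction of most called genes.

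When only pluripotent-like cells were compared, edgeR called 8 of the 10 members higher in the blastoid samples, and ATF3 and ZFP36 were not called. Of 14011 genes tested 13.1% were called higher and 11.3% lower. For 9 members both blastoid samples lay above both hESC samples, as 30.8% of all genes tested did, and ATF3 overlapped. The blastoid cells in this class were few, with 784584 UMIs in blastoid 3 and 1374828 in blastoid 4, and most of them formed a cluster of their own (cluster 9, with 81 and 105 cells and no hESC cell), whereas the hESC cells lay in clusters 0, 2 and 4. In cluster 9 all 14 pluripotency markers, 12 of 20 trophectoderm/amnion markers and 7 of 20 mesoderm/mesenchyme markers were found in at least 10% of cells. Its cells had a median of 11203 UMIs, and their depth relative to their own samples (median 1.48) was the greatest of all clusters. Whether barcodes holding more than 1 cell are among them was not tested.

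FOS was at 13.1 and 14.2 CPM in the pluripotent-like cells of the hESC samples and at 175 and 100.4 CPM in those of the blastoid samples (log2 3.28 ± 0.21, edgeR adjusted p = 1.14e-09). JUN was at 6.37 and 6.30 CPM against 156 and 98.2 CPM (log2 4.28 ± 0.21, edgeR adjusted p = 2.72e-11), which had the lowest adjusted p among the members. JUND was at 101 and 92.0 CPM against 165 and 238 CPM, and its log2 difference of 1.08 ± 0.17 was as large as over all cells. FOSB (16 and 8 UMIs in the blastoid samples, log2 4.63 ± 0.63), DUSP1 (20 and 12 UMIs, log2 2.17 ± 0.41) and JUNB (10 and 21 UMIs, log2 1.68 ± 0.34) were also called higher.

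The FOSB difference was log2 3.74 without blastoid 3 and 5.38 without blastoid 4, and that of DUSP1 1.44 and 2.82, and both stayed called. For the other 4 members the difference within pluripotent-like cells was under log2 1, and it was not called or lost its call under some alternatives. EGR1 was at 16.4 and 18.5 CPM in the hESC samples, 44.1 CPM in blastoid 3 and 20.7 CPM in blastoid 4. Its log2 difference of 0.78 ± 0.27 (edgeR adjusted p = 0.0391) was 0.25 without blastoid 3 (adjusted p = 0.583) and 1.30 without blastoid 4, and its adjusted p ranged up to 0.787 over the alternatives tried. IER2 was at 129.7 and 128.9 CPM against 167 and 185 CPM (log2 0.45 ± 0.15, edgeR adjusted p = 0.0328), with an adjusted p of up to 0.333 over the alternatives. ATF3 was at 55.2 and 30.4 CPM in the hESC samples and at 37.0 and 37.6 CPM in the blastoid samples, which lay between them (log2 -0.18 ± 0.29, edgeR adjusted p = 0.685). ZFP36 was at 2.82 and 3.70 CPM against 4.77 and 5.17 CPM, from 4 and 7 UMIs in the blastoid samples (log2 0.60 ± 0.51, edgeR adjusted p = 0.42). JUNB missed the threshold without hESC 1 (adjusted p = 0.061), without blastoid 4 (0.0555) and with 15 principal components (0.0538).

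**Figure D2:**
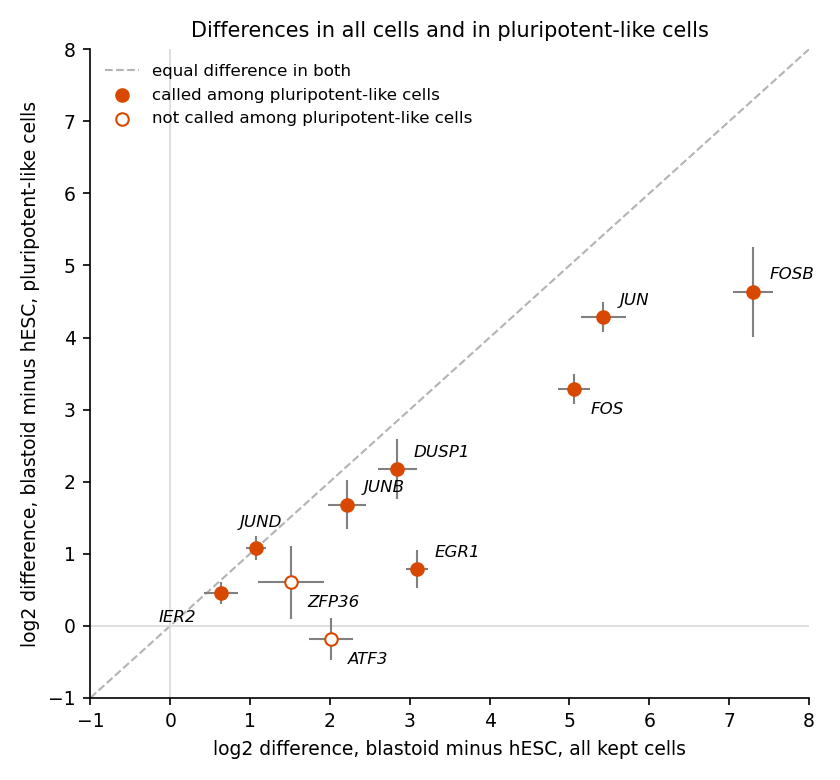
Log2 difference (blastoid minus hESC) of each of the 10 genes over all kept cells (horizontal axis) and over pluripotent-like cells (vertical axis), with bars of 1 SE and the dashed line marking equal values. JUND lies on the line and the other 9 genes lie below it, among them EGR1 (3.095 and 0.78) and ATF3 (2.01 and -0.18). The difference between the comparisons was not tested.

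Several members, among them FOS, FOSB, EGR1 and ATF3, were more abundant in both other classes of blastoid cells than in the pluripotent-like ones. IER2 and ZFP36 were lower in mesoderm/mesenchyme-like cells than in pluripotent-like cells in both blastoid samples, and JUND was highest in the pluripotent-like cells of blastoid 4. GABRP, a marker of amnion, was in the pluripotent-like cells at 6.38% of its level in trophectoderm/amnion-like cells in blastoid 3 and at 3.94% in blastoid 4, and the collagen gene COL3A1 was at 2.02% and 1.11% of its level in mesoderm/mesenchyme-like cells. Carrying over the members at these shares would give 68.5 of the 187 CPM of FOS measured in blastoid 3 and 41.8 of the 98.9 CPM in blastoid 4 (levels without TMM scaling). For JUN it would give 28.9 of 167 CPM and 24.9 of 96.7 CPM, and for JUND 20.9 of 176 CPM and 11.1 of 234 CPM. With these amounts taken off, FOS, JUN, JUNB, JUND, IER2, DUSP1 and ZFP36 stayed above both hESC samples in both blastoid samples, ZFP36 narrowly (3.83 and 3.76 CPM left, against 3.66 CPM in hESC 2), and ATF3 in neither. FOSB and EGR1 did so in blastoid 3 alone: for FOSB in blastoid 4 the carried amount would be 6.36 CPM, more than the 5.82 CPM measured, and for EGR1 it would leave 7.18 CPM, under the 18.2 CPM of hESC 2. The outcome depends on the markers taken. ISL1, another marker of the trophectoderm/amnion set, was in the pluripotent-like cells at 71.4% and 77.0% of its trophectoderm/amnion-like level in blastoid 3 and blastoid 4. No estimate was made with ISL1, whose higher shares would take off more of every member. VTCN1, also a marker of amnion, was at 9.03% and 2.51% of its trophectoderm/amnion-like level and POSTN, a matrix protein gene, at 4.24% and 3.28% of its mesoderm/mesenchyme-like level. With these shares EGR1 stayed above both hESC samples in neither blastoid sample (8.77 and 10.2 CPM left), ZFP36 in blastoid 4 alone (3.26 CPM left in blastoid 3) and FOSB in both (0.78 CPM left in blastoid 4), and the outcome for the other 7 members was as before. Both estimates were added after the values had been seen, and the part of free RNA in these differences was not tested.

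Other lists were tested in the same fit. Of 35 other immediate early genes 28 were tested within pluripotent-like cells, 14 were called higher and 4 lower, with a median log2 difference of 0.52 against -0.01 over all genes tested. KLF6 was higher by log2 2.00 ± 0.19, and ZFP36L1 was lower by log2 -0.46 ± 0.16, the opposite of its direction over all cells. DUSP6 was at 109.3 and 160.8 CPM in the hESC samples and at 11.9 and 5.17 CPM in the blastoid samples (log2 -4.11 ± 0.33). Of 14 AP-1 target genes tested 6 were called higher, and 8 were not called. SPP1, which encodes the secreted protein osteopontin, rose from 10.6 and 10.3 CPM to 103 and 168 CPM (log2 3.73 ± 0.20), and LMNA rose by log2 1.13 ± 0.17. Of 13 heat shock and chaperone genes 6 were called higher and 2 lower, with a median of 0.56.

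Within the blastoid samples the members were highest in trophectoderm/amnion-like cells, except JUND in blastoid 4. There JUND was at 234 CPM in pluripotent-like and 222 CPM in trophectoderm/amnion-like cells (without TMM scaling). DUSP1 in blastoid 3 was nearly equal in these classes (25.5 and 25.7 CPM). The test given here compares mesoderm/mesenchyme-like with trophectoderm/amnion-like cells only. All 10 were called lower in mesoderm/mesenchyme-like than in trophectoderm/amnion-like cells in a fit with the sample as a block, against 25.7% of 13959 genes tested that were called lower and 25.1% that were called higher. The members' median log2 difference was -1.73, and that of all genes tested was 0.03. In all 10 both samples' mesoderm/mesenchyme-like cells lay below both samples' trophectoderm/amnion-like cells, as 32.3% of all genes tested did.

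FOS was at 987 CPM in blastoid 3 and 1037 CPM in blastoid 4 in trophectoderm/amnion-like cells, and at 285 and 326 CPM in mesoderm/mesenchyme-like cells. It was 3.31-fold lower in the latter (log2 -1.73 ± 0.12, edgeR adjusted p = 6.05e-09). FOSB was at 163 and 161 CPM against 47.1 and 38.2 CPM (log2 -1.94 ± 0.12, edgeR adjusted p = 2.12e-09). JUN was at 398 and 602 CPM against 172 and 245 CPM (log2 -1.27 ± 0.14, edgeR adjusted p = 2.26e-06), and JUNB was at 40.4 and 47.8 CPM against 12.1 and 14.3 CPM (log2 -1.73 ± 0.14).

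EGR1 was at 373 and 338 CPM in trophectoderm/amnion-like cells and at 110.1 and 69.7 CPM in mesoderm/mesenchyme-like cells (log2 -2.02 ± 0.11, edgeR adjusted p = 7.17e-10). IER2 was at 451 and 533 CPM against 93.7 and 119 CPM, 4.64-fold lower in the latter (log2 -2.21 ± 0.08, edgeR adjusted p = 3.5e-12). ZFP36 showed the widest gap, with 19.1 and 35.4 CPM against 2.88 and 2.59 CPM, which rest on 53 and 200 UMIs against 36 and 27 (log2 -3.29 ± 0.24, edgeR adjusted p = 1.84e-08). Its value was log2 -2.51 without blastoid 4, where the trophectoderm/amnion-like level was the higher one.

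For the remaining 3 members the classes differed less. ATF3 was at 218 and 251 CPM against 145 and 201 CPM (log2 -0.45 ± 0.09, edgeR adjusted p = 0.000472), and this call was lost when shared barcodes were left out (log2 -0.26, adjusted p = 0.0589). DUSP1 was at 26.0 and 42.3 CPM against 18.3 and 24.8 CPM (log2 -0.69 ± 0.19, edgeR adjusted p = 0.00754). JUND was at 265 and 238 CPM against 190.0 and 208 CPM (log2 -0.33 ± 0.10, edgeR adjusted p = 0.0138). Without blastoid 4 the DUSP1 value was log2 -0.42, and without blastoid 3 that of JUND was log2 -0.19. DUSP1 (adjusted p = 0.316) and JUND (adjusted p = 0.127) were not called by DESeq2, and JUND was not called without TMM scaling (adjusted p = 0.111).

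**Figure D3:**
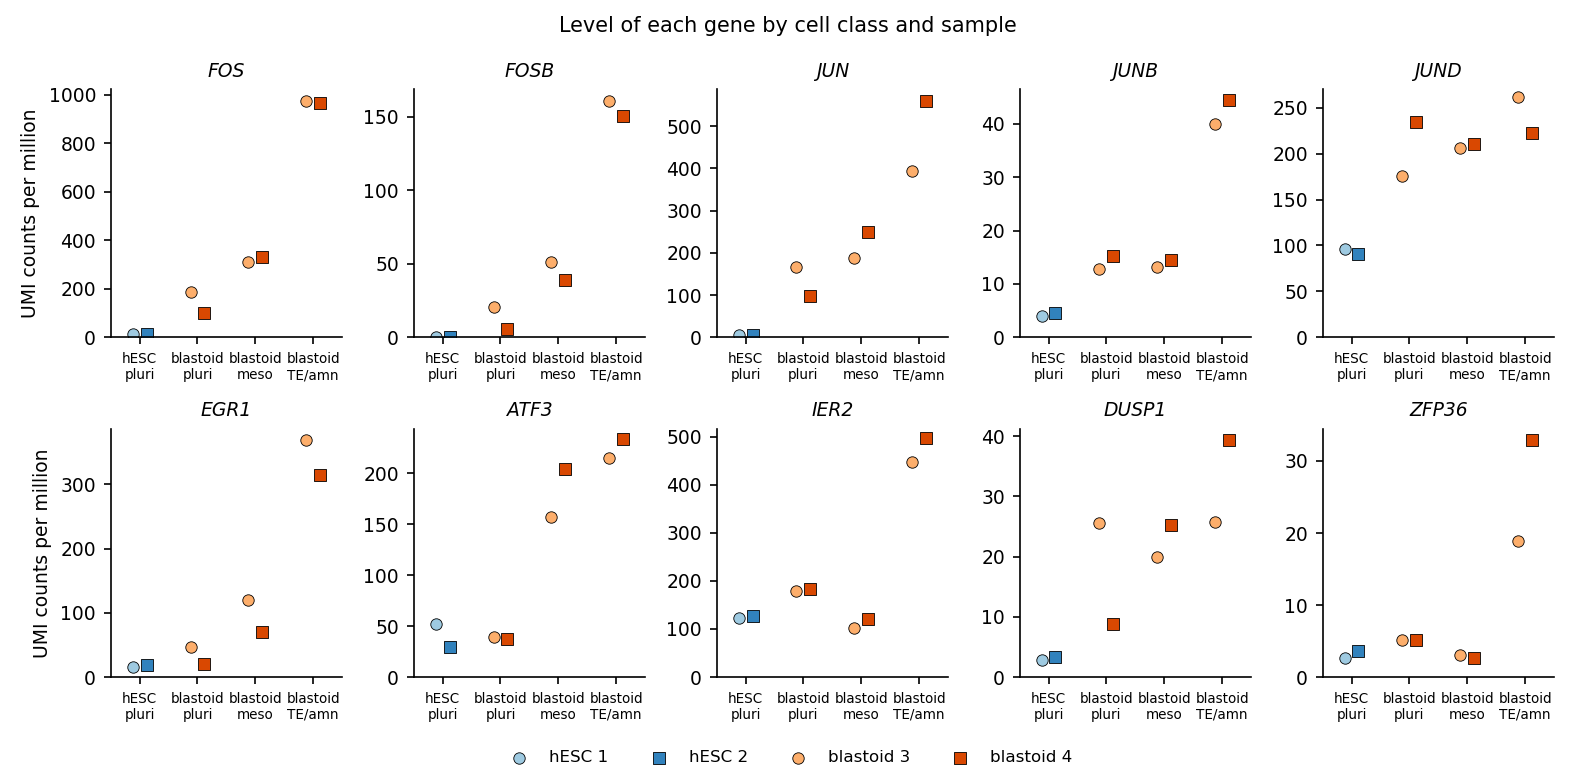
CPM of each gene in the pluripotent-like cells of the hESC samples and in the pluripotent-like (pluri), mesoderm/mesenchyme-like (meso) and trophectoderm/amnion-like (TE/amn) cells of the blastoid samples, 1 point per sample, on linear axes from 0 with a scale for each gene. For FOS, FOSB, JUN and EGR1 the 4 groups of cells stand in 1 order without overlap, while IER2 and ZFP36 in mesoderm/mesenchyme-like cells lie at or below the hESC level.

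The order of the cell classes split the members into sets. For FOS, FOSB, JUN and EGR1 the order was trophectoderm/amnion-like, mesoderm/mesenchyme-like, pluripotent-like of the blastoids and pluripotent-like hESC, and no neighbours in this order overlapped. For JUND the mesoderm/mesenchyme-like cells (206.4 and 211.0 CPM) and the pluripotent-like blastoid cells (175.9 and 234.2 CPM) overlapped, the latter also overlapped the trophectoderm/amnion-like cells (261.9 and 222.0 CPM), and all lay above hESC. The mesoderm/mesenchyme-like and pluripotent-like blastoid cells also overlapped for JUNB and DUSP1. For ATF3 the pluripotent-like cells of the blastoid and hESC samples overlapped, and both lay below the other classes.

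IER2 and ZFP36 did not stand above the stem cells in mesoderm/mesenchyme-like cells. IER2 in mesoderm/mesenchyme-like cells was at 102 and 121 CPM, below the 123 and 127 CPM of the pluripotent-like hESC. ZFP36 in mesoderm/mesenchyme-like cells, at 3.13 and 2.64 CPM, overlapped the hESC samples at 2.68 and 3.66 CPM. Trophectoderm/amnion-like cells supplied 48.8% of the IER2 UMIs and 57.0% of the ZFP36 UMIs of blastoid 3, and 66.9% and 85.5% of those of blastoid 4, while they held 18.6% and 34.3% of all UMIs. They supplied 22.6% and 35.2% of the JUND UMIs, close to their share of all UMIs. Blastoid 4 also had the larger share of these cells (32.9% of kept cells against 18.2%). Within trophectoderm/amnion-like cells IER2 was at 446 CPM in blastoid 3 and 496 CPM in blastoid 4, and ZFP36 at 18.9 and 33.0 CPM. Within mesoderm/mesenchyme-like cells IER2 was also higher in blastoid 4, and ZFP36 was lower. How far the share of cells goes with the higher levels of IER2 and ZFP36 in blastoid 4 over all cells was not tested.

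Other immediate early genes followed the members in this comparison: 33 of 35 were tested, 28 were called lower in mesoderm/mesenchyme-like cells and 1 higher, with a median log2 difference of -1.46. KLF6 was at 269 and 375 CPM in trophectoderm/amnion-like cells against 89.0 and 119 CPM, and MCL1, a survival factor of the BCL2 family, was at 235 and 232 CPM against 90.2 and 80.2 CPM. The phosphatases diverged, with 4 called higher and 3 lower in mesoderm/mesenchyme-like cells: DUSP6 was higher (log2 1.83 ± 0.17) and DUSP5 lower (log2 -2.98 ± 0.14). Of 13 AP-1 target genes tested 3 were called higher and 7 lower, with CCND1 higher (log2 1.68 ± 0.17) and LMNA lower (log2 -2.16 ± 0.11). Heat shock and chaperone genes were called in both directions, 5 higher and 5 lower. GABRP in mesoderm/mesenchyme-like cells was at 0.81% and 0.91% of its trophectoderm/amnion-like level and COL3A1 in the reverse direction at 4.63% and 7.69%. FOS in mesoderm/mesenchyme-like cells was at 31.8% and 34.4% of its trophectoderm/amnion-like level, and the part of free RNA in that was not tested.

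Clusters of the mesoderm/mesenchyme-like class differed among themselves. The summed level of the 10 members, without TMM scaling, was 2906 and 3059 CPM in trophectoderm/amnion-like cluster 3 of blastoid 3 and blastoid 4. It lay between 1191 and 1674 CPM in mesoderm/mesenchyme-like clusters 1, 5, 6 and 10. Cluster 8, whose leading genes MESP1, MSGN1 and MIXL1 are known from the primitive streak and early mesoderm, had 629 and 873 CPM (228 and 42 cells), below the other 4 clusters of its class in both samples. In cluster 8 ATF3 was at 29.1 and 33.0 CPM, against 151 to 274 CPM in the other 4 clusters. The hESC clusters lay between 258 and 341 CPM, the low-depth clusters 4 and 7 among them. These clusters were formed without the members or any other listed gene.

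**Figure D4:**
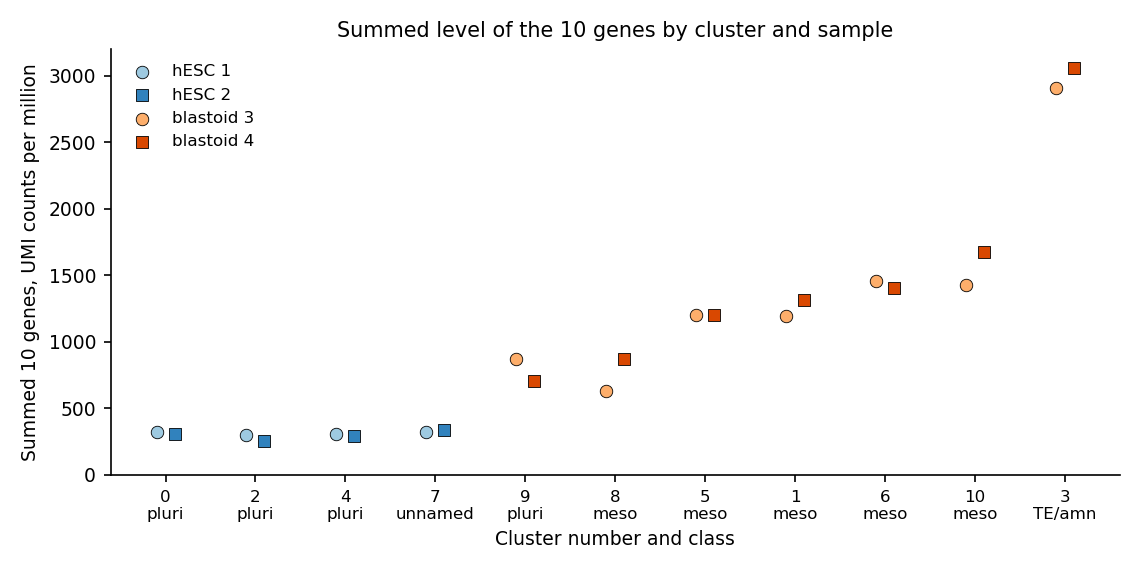
Summed level of the 10 genes in each cluster and sample with at least 40 cells, in CPM without TMM scaling. All hESC clusters lie at or below 341, cluster 8 at 629 and 873 is the lowest of the mesoderm/mesenchyme-like (meso) clusters, and trophectoderm/amnion-like (TE/amn) cluster 3 stands highest at 2906 and 3059.

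Single cells were then compared at equal depth, each thinned at random to 2000 UMIs, which left 1803, 2202, 2171 and 1874 cells and left out 435, 973, 107 and 42 shallower ones. A FOS UMI was found in 2.44% of hESC 1 cells (Clopper-Pearson 95% interval 1.78% to 3.26%), 2.68% of hESC 2 cells (2.05% to 3.44%), 41.8% of blastoid 3 cells (39.7% to 43.9%) and 48.1% of blastoid 4 cells (45.8% to 50.4%). Before thinning these shares were 6.88%, 6.46%, 63.7% and 74.4%. These intervals cover counting error only. For JUN the thinned shares were 1.39%, 1.32%, 29.5% and 38.2%, and for FOSB 1 of 1803, 1 of 2202, 242 of 2171 and 202 of 1874 cells held a UMI.

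For all 10 members both blastoid shares lay above both hESC shares. The share of all genes for which this holds was not counted. More genes were found in at least 5% of cells in the blastoid samples (5761 and 5457) than in the hESC samples (4863 and 5003). With 2 samples a group the exact two-sided permutation test cannot go below p = 0.33, the value it gave for each member. The gap was 16.4 percentage points for JUND (16.6% ± 0.8 against 33.0% ± 0.003, SD, n = 2 a group) and 5.46 points for IER2. For IER2 blastoid 3, at 21.8%, was barely above the hESC samples at 20.8% and 21.2%. In trophectoderm/amnion-like cells a FOS UMI was found in 73.6% and 73.4% of cells, in mesoderm/mesenchyme-like cells in 36.3% and 37.8%, and in pluripotent-like blastoid cells in 15.9% and 13.9% (13 of 82 and 15 of 108 cells).

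The number of different members found per cell rises with their levels, and what the levels alone would give was not computed. At 2000 UMIs, 54.2% and 56.9% of hESC cells and 20.5% and 16.9% of blastoid cells held no UMI of any member. At least 3 different members were found in 1.33% and 1.27% of hESC cells and in 31.0% and 39.0% of blastoid cells, and at least 5 in 0 of 1803, 0 of 2202, 173 of 2171 and 212 of 1874 cells. In trophectoderm/amnion-like cells at least 3 were found in 65.1% and 66.2%, against 24.4% and 27.0% of mesoderm/mesenchyme-like cells. Even so, 7.97% and 5.52% of trophectoderm/amnion-like cells held no member UMI at this depth.

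**Figure D5:**
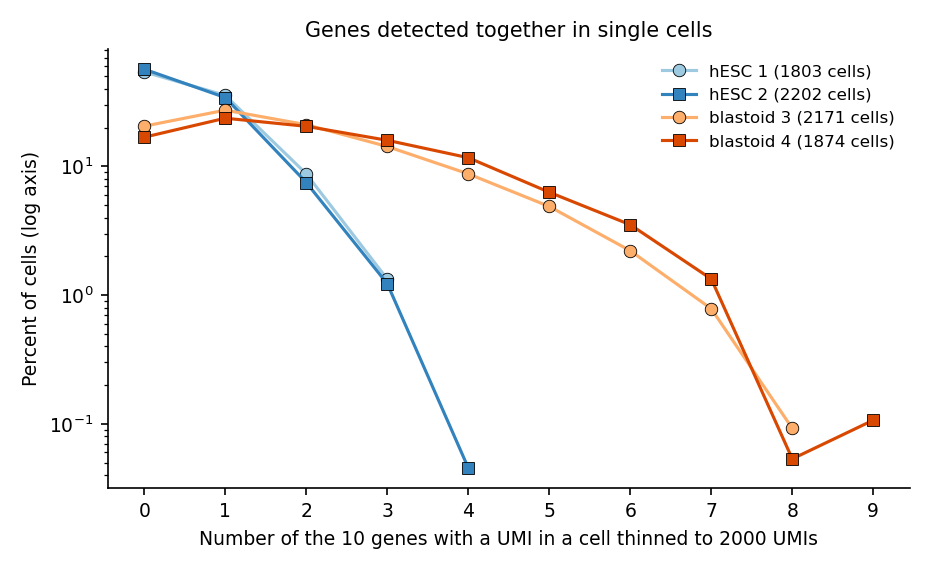
Percent of cells (log axis) by the number of the 10 genes with at least 1 UMI, in cells thinned to 2000 UMIs; a number found in no cell has no point. The hESC lines end at 3 and 4 genes, while the blastoid lines run on to 8 and 9 and hold 31.0% and 39.0% of cells at 3 genes or more.

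Cells of the blastoid samples differed among themselves in their member UMIs. The variance divided by the mean of the summed member UMIs per thinned cell, which is near 1 for counting noise alone, was 3.62 and 4.02 in the blastoid samples. It was 1.09 and 1.08 in the hESC samples, where the mean sum was 0.64 and 0.58 UMIs against 2.93 and 3.72, and since counting holds the ratio near 1 at low means the groups are not compared by it. Within single classes it was 3.32 and 3.53 in trophectoderm/amnion-like cells and 2.85 and 3.02 in mesoderm/mesenchyme-like cells, so the spread was not only between classes. For FOS alone it was 2.28 and 2.29 in the blastoid samples, where FOS ranked 48 of 5761 and 49 of 5457 genes found in at least 5% of cells. The median gene had 1.03 in both blastoid samples. JUND had 1.14 and 1.16 and ranked 703 and 547, below FOS but near the 90th percentile of these genes (1.17 and 1.16). The ranks were not matched for mean level, which was 0.85 and 1.08 UMIs for FOS and 0.42 and 0.43 UMIs for JUND. The tenth of cells with the most member UMIs held 35.9% and 33.6% of all of them.

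Correlations across thinned cells are given as descriptions, since the cells of a sample share a library. Over the 45 pairs of members the mean Pearson r was 0.00 and 0.01 in the hESC samples (1803 and 2202 cells) and 0.12 and 0.13 in the blastoid samples (2171 and 1874 cells). At this depth several members are nearly absent from hESC cells (a FOS UMI in 2.44% of hESC 1 cells), which holds r near 0, so the groups are not compared by it. FOS with EGR1 had r = 0.34 and 0.32, FOS with JUN 0.31 and 0.32, and FOS with FOSB 0.31 and 0.31 in blastoid 3 and blastoid 4. Within trophectoderm/amnion-like cells FOS with JUN had r = 0.39 and 0.34, so the pairing was not only a contrast between classes. The summed members had r = 0.39 and 0.47 with the summed other immediate early genes in the blastoid samples. With the summed heat shock and chaperone genes, a sum weighted to the most abundant of them, r was -0.11 and -0.13. With the cell's depth before thinning r was 0.01 and -0.03, and with its mitochondrial share -0.05 and -0.07.

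Likeness to the summed members over all 4 samples, ranked by the lowest of 4 Pearson r among 4046 genes found in at least 5% of cells of every sample, gave DBI, CTNNA1, WEE1, TOR1AIP2 and H1F0, with a lowest r of only 0.03 to 0.04, which is no pattern. Restricted to the blastoid samples, a ranking added after the values had been seen, the genes most like the members within trophectoderm/amnion-like cells were CCN1 (r = 0.29 and 0.33), HES1 (0.38 and 0.29), MCL1 (0.23 and 0.23), BTG2 (0.21 and 0.27) and KLF6 (0.21 and 0.23), among 4753 genes. Within mesoderm/mesenchyme-like cells they were HES1 (0.35 and 0.27), KRT8 (0.20 and 0.20), KLF6 (0.19 and 0.21), CCN1 (0.20 and 0.19) and SLC9A3R1 (0.20 and 0.18), among 5227 genes. CCN1 is a secreted matricellular protein, HES1 a Notch-responsive repressor and BTG2 an antiproliferative factor. CCN1, HES1 and KLF6 were among the 5 most like in both classes.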

How the data were processed

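Chromium 3′ libraries of 4 samples were read from the deposited tables, whose values are raw UMI counts per gene and barcode made by the authors with Cell Ranger on GRCh38, per the submitters' processing notes; the Cell Ranger version and the annotation are not given in the sources used here. Cells with at least 500 genes and at most 20% mitochondrial UMIs were kept (9680 of 19074 barcodes). Scrublet (scanpy 1.11.5, expected rate 6%) called 73 doublets (0.754%; 0 in hESC 2), which were left out, so doublets of similar cells remain. Cells were clustered without the 114 listed genes (2000 variable genes, 30 principal components, 15 neighbours, Leiden resolution 0.5, leidenalg 0.10.2) and named from 7 fixed marker sets, so a difference from the study's own cell types may come from the naming. A name needed at least 3 markers in at least 10% of a cluster's cells, and more such markers than any other class. A cluster much shallower than its samples, with no marker of its class among its leading genes, was left unnamed.

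UMIs were summed per sample, or per sample and class, and tested with edgeR 4.0.16 (quasi-likelihood, TMM, filterByExpr, Benjamini-Hochberg over all genes tested, adjusted p under 0.05), in R 4.3.3. The standard error is the size of the log2 difference divided by the square root of F. The class comparison used the blastoid samples only, with 3 classes and a sample block. On simulated counts the test recovered 52 of 97 genes changed 2-fold and 91 of 97 changed 4-fold over all cells, 51 of 99 and 81 of 98 in pluripotent-like cells, and 77 of 93 and 92 of 96 between classes. False calls were 9, 6 and 6 in the same order. The simulation changed far fewer genes than were called in the data and drew counts with the spread fitted to these samples. Recovery in the data may therefore differ. The members and lists were chosen with earlier results of these data known. Named genes are the members, at most 5 genes per other list with the highest mean level, and the 5 genes most like the members. Median depth per kept cell was 4996 to 8798 UMIs.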

Additional observations from a re-analysis of the deposited data

Results flagged for a closer look

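Barcodes with fewer than 500 genes entered no comparison. In them the summed level of the 10 members was 1647 CPM in blastoid 3 (749 member UMIs in 1198 barcodes) and 1622 CPM in blastoid 4 (87 member UMIs in 120 barcodes), above the 279 CPM of hESC 1 and the 271 CPM of hESC 2. These levels were near those of the kept cells of the same samples (1475 and 1840 CPM in the blastoid samples, 316 and 300 CPM in the hESC samples). Of the 1198 barcodes of blastoid 3, 163 were not shared with another table, and in them the level was 1476 CPM. The source of these UMIs was not tested.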

How the results depend on the processing

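All 10 members kept their direction over all cells under the 13 alternatives tried, and the number called higher lay between 8 and 10. Between classes it lay between 8 and 10 lower under 9 alternatives, and within pluripotent-like cells between 5 and 8 higher under 14. In pluripotent-like cells the count of members was 5 with 15 principal components; ATF3, not called, moved from -0.18 to 0.29 without hESC replicate 1 and to -0.57 without hESC replicate 2. Leaving out 1 sample gave 4896 to 10157 called genes over all cells (8157 with all; 4896 without hESC 1 and 5114 without hESC 2), 1015 to 3641 in pluripotent-like cells (3419 with all; 1015 without hESC 1 and 1210 without hESC 2), 8 to 10 members over all cells and 5 to 7 in pluripotent-like cells; fewer samples were fitted there, and a lone sample is assumed to vary like the other group. DESeq2 called 1628 genes in pluripotent-like cells and 3881 between classes (7101 by edgeR); the cause was not tested. Scaling by library size only moved the median of all genes over all cells from 0.05 to 0.18 and the calls to 5129 higher and 2998 lower (4429 and 3728 with TMM); all 10 members stayed called higher. Without 1 blastoid sample the class comparison has no residual degrees of freedom for a test, and values are given without one. Using only the blastoid cells of cluster 9, added after seeing the data, EGR1 missed the threshold (adjusted p = 0.0557). ZFP36 was too low to be tested in pluripotent-like cells under 3 of the alternatives. Shares of cells with a member UMI were higher in the blastoid samples for 10 members under every alternative run (thinned to 1000 UMIs, not thinned, without shared barcodes, without each sample). The same was not counted over all genes. No paired analysis was possible because the groups share no replicate number. FOSB rested on 7 and 5 UMIs in the hESC samples. Few cells limit depth in the pluripotent-like blastoid cells, where FOSB, JUNB, DUSP1 and ZFP36 had at most 21 UMIs a sample.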
